A study of Mus musculus with 4 samples.

Results

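The genes through which a cell displays peptides to T cells were followed across the epithelial lineages of the mouse mammary gland. There were 10 members among the 27998 genes of the count tables, taken by symbol. Of these, 6 serve class I presentation (H2-K1, H2-D1, B2m, Tap1, Psmb8 and Psmb9) and 4 serve class II presentation (Cd74, H2-Aa, H2-Ab1 and H2-Eb1). The measurement was droplet-based 3′ single-cell RNA sequencing of mammary epithelial cells from FVB/NJ females, sorted by flow cytometry as CD24+ cells that lacked Ter119, CD31 and CD45 and excluded propidium iodide. No treatment or engineered allele was involved. The puberty group held glands pooled from 6 mice at 5 weeks of age. The estrus and diestrus groups each held glands pooled from 2 adult mice at 10 weeks, staged by vaginal cytology.

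Class I molecules are carried by nearly all nucleated cells. Proteasomes cut cytosolic proteins into peptides, the TAP transporter carries them into the endoplasmic reticulum, and they are loaded onto a heavy chain that is paired with the light chain β2-microglobulin. Interferons swap the standard catalytic subunits of the proteasome for immunoproteasome subunits, 2 of which are made by Psmb8 and Psmb9. Class II molecules are the property of professional antigen-presenting cells, but epithelia can acquire them, and their assembly depends on the invariant chain made by Cd74.

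In the mm10 build, 8 of the 10 members lay in the major histocompatibility complex of chromosome 17. H2-K1 (ENSMUSG00000061232) spanned 33996017 to 34000347 on the minus strand and H2-D1 (ENSMUSG00000073411) 35262730 to 35267499 on the plus strand. Psmb9 (34181987 to 34187764, minus strand), Tap1 (34187553 to 34197225, plus strand) and Psmb8 (34197721 to 34201454, plus strand) were neighbours. The class II chain genes H2-Ab1 (34257689 to 34269419), H2-Aa (34282744 to 34287823) and H2-Eb1 (34305867 to 34316674) followed. B2m (ENSMUSG00000060802) was on chromosome 2, from 122147686 to 122153083, and Cd74 also lay outside the complex.

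FVB/NJ carries another haplotype of the complex than the C57BL/6J reference, and class I heavy chains have close relatives, so reads could be lost or split between genes in counting. Of the 50-base stretches in the last 500 bases of the coding transcripts, 9.60% for H2-K1 and 8.92% for H2-D1 were also found in transcripts of other genes, among them each other. The share was 2.75% for Tap1 and 0 for the other 7 members. The levels of H2-K1 and H2-D1 are therefore uncertain. These shares compare reference transcripts with each other, so they do not show reads lost to the haplotype. That effect was not tested for any member in the complex, the class II chains among them.

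RefSeq promoter windows (GRCm38.p6, 250 bases before to 50 after a start site) were found for 8 members. The 250 bases upstream of the start are printed 5′ to 3′ for 4 class I pathway genes, to show the promoter letters of both heavy chains, the light chain and the transporter. Capitals mark matches, on either strand, to an NF-κB motif (GGGGATTCC), an interferon regulatory factor motif (GAAANNGAA) or the Y box (CTGATTGG). The stretches are chr17:34000348-34000597 (minus strand) for H2-K1, chr17:35262844-35263093 (plus) for H2-D1, chr2:122147437-122147686 (plus) for B2m and chr17:34187306-34187555 (plus) for Tap1.
H2-K1: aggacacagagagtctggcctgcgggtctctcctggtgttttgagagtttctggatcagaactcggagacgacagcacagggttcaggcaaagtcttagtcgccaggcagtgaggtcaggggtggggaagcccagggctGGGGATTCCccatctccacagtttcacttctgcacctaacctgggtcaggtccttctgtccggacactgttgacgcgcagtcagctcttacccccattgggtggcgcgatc
H2-D1: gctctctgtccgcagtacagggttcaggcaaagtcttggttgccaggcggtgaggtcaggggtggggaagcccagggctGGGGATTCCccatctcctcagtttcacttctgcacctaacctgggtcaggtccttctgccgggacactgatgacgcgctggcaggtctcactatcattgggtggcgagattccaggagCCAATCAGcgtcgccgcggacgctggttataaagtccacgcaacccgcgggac
B2m: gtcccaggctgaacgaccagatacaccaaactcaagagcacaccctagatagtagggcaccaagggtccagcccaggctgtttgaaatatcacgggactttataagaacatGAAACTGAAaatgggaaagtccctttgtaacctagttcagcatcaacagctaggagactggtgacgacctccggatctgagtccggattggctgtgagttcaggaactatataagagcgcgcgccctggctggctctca
Tap1: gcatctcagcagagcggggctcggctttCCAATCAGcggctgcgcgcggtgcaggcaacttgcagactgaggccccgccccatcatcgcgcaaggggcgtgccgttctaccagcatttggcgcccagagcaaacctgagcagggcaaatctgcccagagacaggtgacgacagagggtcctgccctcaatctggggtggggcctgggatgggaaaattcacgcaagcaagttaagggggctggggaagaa

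H2-K1 and H2-D1 shared an unbroken run of 47 bases around the NF-κB match. That motif occurred in 0.250% of the 32851 windows in the table. The Y box, found in 4.10% of windows, was present in those of H2-K1, H2-D1, Tap1, Psmb9, H2-Aa and H2-Eb1. The interferon regulatory factor motif, found in 8.56% of windows, was present in that of B2m alone among the 8 members with a window. Only this exact form, with the longer part first, was searched, so other forms of such a site would stay in lower case. The printed stretches of H2-K1 and H2-D1 both hold tttcacttc in lower case. Its other strand has the same gap between the parts, but with the shorter part first. The absence of a match to the searched form therefore does not show that the heavy chain windows lack such a site. No match was found in the window of Psmb8. The RefSeq starts of Tap1 and Psmb9 were 226 bases apart on opposite strands, and their windows overlapped by 275 bases, so the Y box of Tap1 and that of Psmb9 are the same bases. A match is a description of the letters and not evidence of binding.

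Each stage was represented by 1 library. The puberty sample was deposited as 2 tables that shared 5387 barcodes, 99.2% of the first, with per-cell totals that correlated at r = 0.997 over those barcodes. They were counted as 1 library, and the first table was used over the shared barcodes (25303015 counts). There were 2729 cells with 10962454 counts in estrus and 2439 cells with 11868593 counts in diestrus. Other pairs of tables shared 13 to 24 barcodes. Cells were assigned from marker genes to basal-like, luminal progenitor-like (LP) and mature luminal-like (ML) classes, called basal, LP and ML cells from here on. There were 1119 basal, 1758 LP and 2169 ML cells at puberty, 1308, 472 and 783 in estrus, and 1050, 566 and 682 in diestrus. Elf5 and Prlr were among the genes used for the assignment, so their levels describe the classes and do not check them. Elf5, which defines LP cells, was at 276 to 569 CPM (counts per 1000000 counts of the class) in LP cells and at most 7.89 elsewhere, and Prlr, the prolactin receptor of ML cells, was at 890 to 1558 in ML cells and at most 63.1 elsewhere. The luminal keratin Krt8 was used only to set aside non-epithelial cells, not to separate the classes. It was at 402 to 660 CPM in basal cells, 2824 to 4205 in LP cells and 3246 to 5181 in ML cells. Its LP and ML ranges overlapped, so it does not check that split. The signatures held none of the members, of the listed pathway genes or of the listed immune markers. They did keep other genes of immune or inflammatory response, 4 of 100 for basal, 22 of 100 for LP and 11 of 100 for ML, such as Cd14, Tnf and Il33. Without these at least 99.7% of the basal, LP and ML cells in each library kept their class, and every tested member kept its direction and its side of the threshold in the lineage comparisons, an alternative chosen after seeing the data. The classes were cut from a per-cell score, and 1.89% to 2.81% of epithelial cells per library lay near a border.

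The class I heavy and light chains were most abundant in ML cells in every library. H2-D1, a classical class I heavy chain, was at 857, 1516 and 1420 CPM in basal cells at puberty, estrus and diestrus. It was at 1337, 1390 and 1589 CPM in LP cells and at 3588, 5597 and 3037 CPM in ML cells. Basal and LP values overlapped, and every ML value lay above them. H2-K1, the other heavy chain, was at 481, 535 and 792 CPM in basal cells, 634, 570 and 1027 in LP cells and 1047, 1805 and 1123 in ML cells. The diestrus LP value sat just under the lowest ML value. B2m was at 555, 691 and 898 CPM in basal cells, 717, 603 and 873 in LP cells and 1729, 1932 and 3393 in ML cells. Its ML values stood clear of both other lineages.

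The immunoproteasome subunits showed a graded order in every library, from basal through LP to ML cells. Psmb8 was at 48.1, 68.7 and 95.8 CPM in basal cells, 158, 180 and 266 in LP cells and 701, 902 and 535 in ML cells. The 3 lineages did not overlap. Psmb9 was at 13.1, 16.8 and 24.7 CPM in basal cells, 30.1, 45.6 and 95.7 in LP cells and 168, 294 and 160 in ML cells, again without overlap. Tap1, a subunit of the peptide transporter, was scarce, at 15.0, 16.6 and 15.9 CPM in basal cells, 12.3, 19.8 and 29.2 in LP cells and 32.8, 30.3 and 23.8 in ML cells. Its LP and ML values overlapped.

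**Figure D1:**
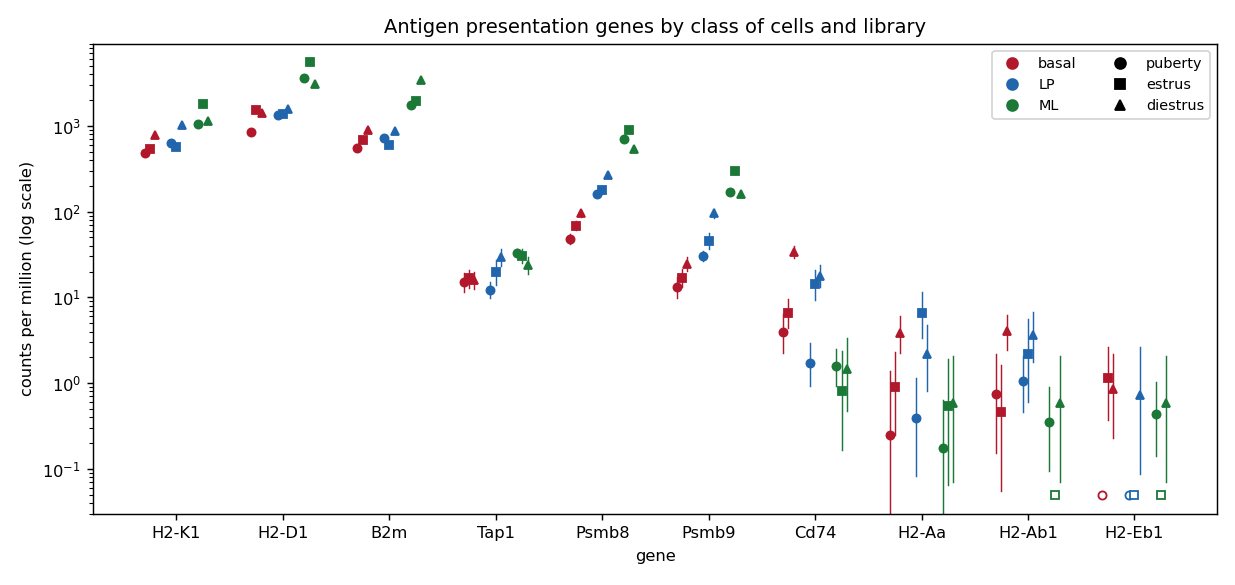
Level of each member in CPM (log scale) in basal, LP and ML cells, with 1 point per library (puberty, estrus, diestrus), exact Poisson 95% intervals as lines and open symbols at the foot for 0 counts. H2-D1, B2m, Psmb8 and Psmb9 are highest in ML cells in all 3 libraries, and the class II chains lie at or below 6.59 CPM everywhere.

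The lineages were compared with edgeR's quasi-likelihood test over 9 pseudobulks, 1 per lineage and library, with the library as a term. Of the members, 7 passed a filter on a mean of 5 CPM, and H2-Aa, H2-Ab1 and H2-Eb1 did not. The libraries differ in stage and mice, so p-values measure whether a lineage difference held across these 3 pools. Adjustment was by Benjamini-Hochberg over all 9037 genes tested.

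Against basal cells, all 6 class I pathway members were higher in ML cells, where 27.4% of all genes tested were called higher. The log2 fold change was 3.55 (SE 0.316, edgeR adjusted p = 8.46e-06) for Psmb9 and 3.37 (SE 0.252, adjusted p = 2.58e-06) for Psmb8. It was 1.68 for both B2m (SE 0.162, adjusted p = 1.46e-05) and H2-D1 (SE 0.197, adjusted p = 5.77e-05), 1.16 for H2-K1 (SE 0.220, adjusted p = 0.00135) and 0.91 for Tap1 (SE 0.253, adjusted p = 0.0119). Each was higher in ML cells in 3 of 3 libraries. The median of the 6 was 1.68, beside -0.02 over all genes.

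LP cells fell below ML cells for 5 of the 6, where 22.2% of all genes were called lower. The log2 fold change was -1.84 for Psmb9 (SE 0.291, edgeR adjusted p = 0.000688), -1.72 for Psmb8 (SE 0.235, adjusted p = 0.000264), -1.49 for B2m (SE 0.162, adjusted p = 5.62e-05) and -1.32 for H2-D1 (SE 0.195, adjusted p = 0.000440), each lower in 3 of 3 libraries. H2-K1 was lower by a smaller amount, -0.72 (SE 0.219, adjusted p = 0.0237). That call depended on single libraries: it was -0.29 (adjusted p = 0.204) without estrus and -0.83 (adjusted p = 0.0605) without puberty. Tap1 was at -0.48 (SE 0.258, adjusted p = 0.160), below ML in 2 of 3 libraries, and passed the threshold only without diestrus (-0.86, adjusted p = 0.0320).

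In LP against basal cells, Psmb8 and Psmb9 were the members that passed the test, where 22.5% of all genes were called higher in LP and 24.3% lower. Psmb8 was higher in LP cells by 1.64 on the log2 scale (SE 0.241, edgeR adjusted p = 0.000340) and Psmb9 by 1.71 (SE 0.319, adjusted p = 0.00161), in 3 of 3 libraries each. H2-K1 (0.44, SE 0.217, adjusted p = 0.125), Tap1 (0.42, SE 0.271, adjusted p = 0.229), H2-D1 (0.36, SE 0.193, adjusted p = 0.156) and B2m (0.19, SE 0.159, adjusted p = 0.358) did not pass. Of these, H2-K1 was higher in LP cells in 3 of 3 libraries, and each of the others in 2 of 3. H2-K1 passed without estrus (0.56, adjusted p = 0.0278) and Tap1 without puberty (0.74, adjusted p = 0.0436). Trimmed-mean (TMM) scaling placed LP cells 0.14 higher (log2) against both other lineages than library totals did. Genes called in LP against ML split 1884 higher to 2008 lower, and 1490 to 2482 without TMM; in LP against basal the split was 2032 to 2197, and 1616 to 2675 without TMM. No member changed direction.

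**Figure D2:**
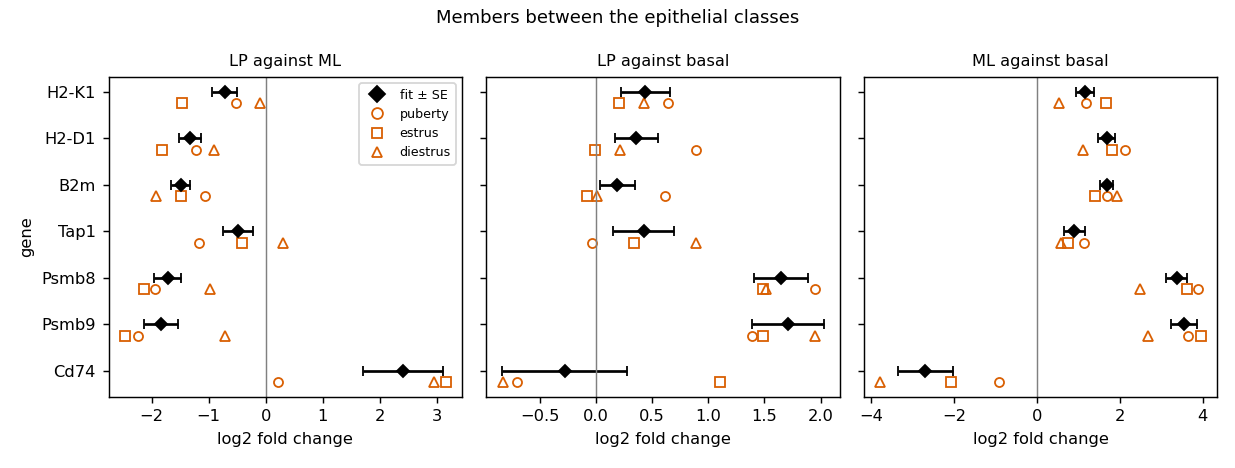
Log2 fold change of the 7 tested members in each lineage comparison, with the edgeR estimate ± SE (diamonds) and the difference within each library (open symbols, TMM-scaled CPM plus a pseudocount of 1). Psmb8 and Psmb9 lie away from 0 in all 3 panels. In LP against basal, H2-D1, B2m and Tap1 have library values on both sides of 0. H2-K1 lies above 0 there in all 3 libraries but did not pass the test.

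The proteasome subunits were also read as a composition, which does not depend on scaling. The counts of the immunoproteasome subunits Psmb8, Psmb9 and Psmb10 were taken as a share of those plus their standard counterparts Psmb5, Psmb6 and Psmb7. In basal cells the share was 7.10% (exact binomial 95% interval 6.40 to 7.84) at puberty, 11.0% (10.1 to 11.9) in estrus and 12.9% (12.1 to 13.7) in diestrus. In LP cells it was 21.2% (20.3 to 22.1), 25.7% (23.9 to 27.6) and 29.5% (28.1 to 30.9). In ML cells it was 41.0% (40.4 to 41.6), 48.8% (47.9 to 49.8) and 37.8% (36.7 to 38.9). These intervals, like the others here for single libraries, cover counting error only. The lineages kept the same order in every library and their ranges did not overlap.

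**Figure D3:**
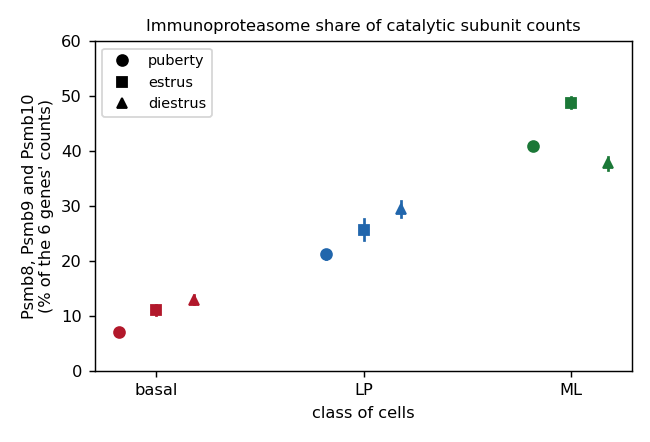
Share of Psmb8, Psmb9 and Psmb10 in the summed counts of the 6 catalytic subunit genes, in percent, by lineage and library, with exact binomial 95% intervals. Basal cells lie at 7.10% to 12.9%, LP cells at 21.2% to 29.5% and ML cells at 37.8% to 48.8%.

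For Psmb8 and Psmb9, the share of cells with a count followed the same order after each cell was thinned to 1500 counts. Psmb8 was then seen in 6.87%, 9.24% and 12.8% of basal cells at puberty, estrus and diestrus. The share was 17.8%, 21.5% and 26.8% in LP cells and 60.1%, 70.8% and 50.3% in ML cells. Before thinning, ML shares were 87.2%, 91.8% and 82.3%. Psmb9 was seen after thinning in 20.9%, 33.5% and 20.1% of ML cells, in 3.32%, 7.39% and 11.3% of LP cells and in 1.65%, 2.49% and 3.20% of basal cells. H2-D1, the most abundant member, was seen after thinning in 95.7% to 99.7% of ML cells, 78.2% to 84.6% of LP cells and 65.8% to 87.7% of basal cells. For B2m these ranges were 79.5% to 91.9%, 53.0% to 64.8% and 53.2% to 65.0%. Tap1 reached at most 4.22% of cells in any lineage at that depth. Its share was 4.22%, 3.26% and 4.04% in ML cells, 1.20%, 2.83% and 3.23% in LP cells and 1.74%, 1.85% and 3.01% in basal cells. The ML interval lay apart from those of LP and basal cells only at puberty.

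Cells with both luminal signatures formed the luminal intermediate (Lum Int) class, of 229, 114 and 92 cells. They were cut as the middle of a score that runs from ML to LP cells. They lay between LP and ML cells in 15 of 18 gene and library pairs for the class I pathway and in 3 of 12 for class II. The share over all genes was not computed, so these counts only describe the class. Psmb8 in Lum Int cells was at 477, 496 and 427 CPM at puberty, estrus and diestrus. Their H2-D1 level was 2238, 3458 and 2167 CPM. The median count per Lum Int cell was 6246, 5983.5 and 6905.5, above those of LP and ML cells. Scrublet called 39, 3 and 0 of these cells doublets, out of 115, 31 and 21 called in the libraries, beside 5, 5 and 0 over all basal, LP and ML cells together. Without the called doublets Psmb8 in Lum Int cells was at 470, 504 and 427 CPM and H2-D1 at 2235, 3452 and 2167 CPM.

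The class II members followed another pattern and another scale. Cd74, the invariant chain, was at 3.95, 6.60 and 33.6 CPM in basal cells at puberty, estrus and diestrus. It was at 1.72, 14.3 and 17.9 CPM in LP cells and at 1.58, 0.804 and 1.45 CPM in ML cells. The diestrus basal value stood above all others, and the ML values were the lowest in each library. Cd74 was lower in ML than in basal cells (log2 fold change -2.69, SE 0.663, edgeR adjusted p = 0.00623), where 29.2% of all genes were called lower. Within libraries the difference was -0.91 at puberty, -2.06 in estrus and -3.78 in diestrus, and the fitted value was -3.94 without puberty. It was higher in LP than in ML cells (2.41, SE 0.696, adjusted p = 0.0187), where 20.8% of all genes were called higher. That rested on 2 libraries: at puberty the LP and ML values came from 13 and 18 counts and their counting intervals overlapped, a difference of 0.21, against 3.17 in estrus and 2.95 in diestrus, and the fitted value was 3.91 without puberty. LP and basal cells were at -0.28 (SE 0.555, adjusted p = 0.708). The call in LP against ML was lost without estrus (1.80, adjusted p = 0.0845), and Cd74 passed the filter through its diestrus values, since without diestrus it did not pass.

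The class II chains were barely detected. H2-Aa, an I-A α chain, had between 1 and 18 counts in any lineage and library, H2-Ab1, its β partner, between 0 and 19, and H2-Eb1, the I-E β chain, between 0 and 5. The highest level was 6.59 CPM, for H2-Aa in estrus LP cells. Fitted without the filter on low values, H2-Aa (2.53, edgeR adjusted p = 0.0168) and H2-Ab1 (2.53, adjusted p = 0.0134) were higher in LP than in ML cells, where 14.5% of the 17368 genes of that fit were called higher. Of the estrus LP counts, 11 of 12 for H2-Aa and all 4 for H2-Ab1 came from 1 cell. A count of 0 in estrus ML cells, as for H2-Ab1, allows a level of up to 0.804 CPM, taken as 3 counts of the class total.

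The counts were spread differently in the libraries with most of them. In diestrus basal cells, 200 class II counts lay in 129 cells, no cell held more than 9, and 112 cells (10.7%) held Cd74. In estrus LP cells, 42 counts lay in 5 of 472 cells, and 1 cell held 31 of them. Without that cell, LP against ML was 1.98 for Cd74 (edgeR adjusted p = 0.0210), a setting chosen after seeing the data. Cd74 was found in 6.18% of diestrus LP cells but in 0.440% of diestrus ML cells, whose median of 4338.5 counts was above the 3382 of basal and 4062 of LP cells. After thinning, the diestrus share was 3.69% for basal cells, 2.69% for LP cells and 0.150% for ML cells. Of the 112 basal cells with Cd74, 13 also held a class II chain.

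Of the 19 immune cell markers in the tables, 7 were at 0 over all basal, LP and ML cells, among them Cd3e, Ms4a1 and Adgre1. Ptprc, which encodes the CD45 antigen used to deplete leukocytes, had 1 count. The summed markers ranged from 0.872 to 4.63 CPM, and were at 3.38 CPM in diestrus basal cells, where the class II members summed to 42.3 CPM. Of the 129 diestrus basal cells with a class II count, 5 (3.88%) held an immune marker, as did 10 of the other 921 (1.09%). In estrus LP cells it was 1 of the 5 with a class II count and 4 of the other 467 (0.857%). Without all cells that held one, Cd74 in ML against basal was -2.78 (edgeR adjusted p = 0.00207).

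**Figure D4:**
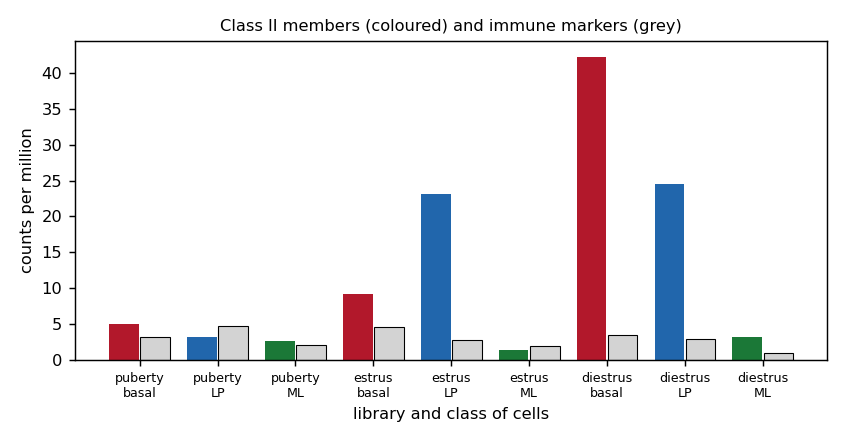
Summed CPM of the 4 class II members (coloured bars) and of the 19 immune markers (grey bars) by library and lineage. The class II members reach 42.3 CPM in diestrus basal, 24.5 in diestrus LP and 23.1 in estrus LP cells, where the immune markers are at 3.38, 2.92 and 2.75 CPM.

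The stages were compared without a test, since a stage was 1 library and the 2 cannot be told apart. Ratios were of TMM-scaled CPM with a pseudocount of 1, given with 95% counting intervals computed without it. In ML cells, 4 of the class I pathway members were lower in diestrus than in estrus: Psmb9 by a log2 ratio of -0.73 (interval -0.89 to -0.59), H2-D1 -0.74 (-0.78 to -0.71), Psmb8 -0.61 (-0.70 to -0.53) and H2-K1 -0.55 (-0.60 to -0.49). B2m in the same cells was higher in diestrus, at 0.95 (0.91 to 0.99), so the light chain and the heavy chains differed in direction. Tap1 was at -0.20 (-0.63 to 0.22).

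In LP cells the same genes were at or above their estrus level. Psmb9 was at 1.03 (0.68 to 1.42), H2-K1 at 0.82 (0.72 to 0.93), Psmb8 at 0.54 (0.35 to 0.73), B2m at 0.51 (0.41 to 0.62) and H2-D1 at 0.17 (0.10 to 0.24). In basal cells the ratio was also above 0 for H2-K1 (0.60, 0.53 to 0.68), Psmb9 (0.56, 0.16 to 1.03), Psmb8 (0.51, 0.31 to 0.73) and B2m (0.42, 0.35 to 0.48), while H2-D1 was at -0.05 (-0.10 to -0.01). The log2 difference of LP from ML cells was closest to 0 in the diestrus library for H2-K1 (-0.10), H2-D1 (-0.91), Psmb8 (-0.98) and Psmb9 (-0.71), and farthest from 0 there for B2m (-1.93).

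Few of these differences were large. Counting genes with a mean of at least 20 CPM that differed by at least 2-fold, Psmb9 in LP cells was the only member to pass between diestrus and estrus, 1 of 6 listed, beside 10.2% of all genes there. None of 4 listed members passed in basal cells (9.34% of all genes) and none of 6 in ML cells (5.56%). Cd74 in basal cells, just under the minimum level, had 159 counts in diestrus and 29 in estrus, a log2 ratio of 2.21 (1.81 to 3.01). H2-Aa went from 4 counts in estrus to 18 in diestrus basal cells and H2-Ab1 from 2 to 19. Without the pseudocount the ratio was 2.39 for Cd74 and 3.18 for H2-Ab1 (1.13 to 6.33).

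Between puberty and both adult libraries no listed member differed by 2-fold in the same direction, beside 2.2% of all genes for basal cells, 1.64% for LP cells and 2.08% for ML cells. The median log2 ratio of the listed members, averaged over both adult stages, was -0.51 in basal cells, -0.08 in LP cells and -0.09 in ML cells. Over all genes it was 0.05, 0.05 and 0.04. Below the minimum level, Cd74 in LP cells was lower at puberty than in estrus by -2.31 (interval without the pseudocount -3.87 to -1.77) and than in diestrus by -2.60 (-4.09 to -2.18), with 13 counts against 26 and 49. H2-Aa in LP cells was lower by -2.36 (-6.25 to -1.89) and -1.10 (-4.80 to 0.058), with 3 counts against 12 and 6. In estrus LP cells, 1 cell held 11 of the 12 H2-Aa counts and 16 of the 26 Cd74 counts. The counting intervals do not cover such clustering, so both ratios to estrus rest largely on that cell. Psmb8 in basal cells was lowest at puberty, at 48.1 CPM, and so were H2-K1, H2-D1 and B2m. For H2-K1 puberty and estrus were not distinguishable there, with a log2 ratio of -0.02 (-0.10 to 0.07).

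**Figure D5:**
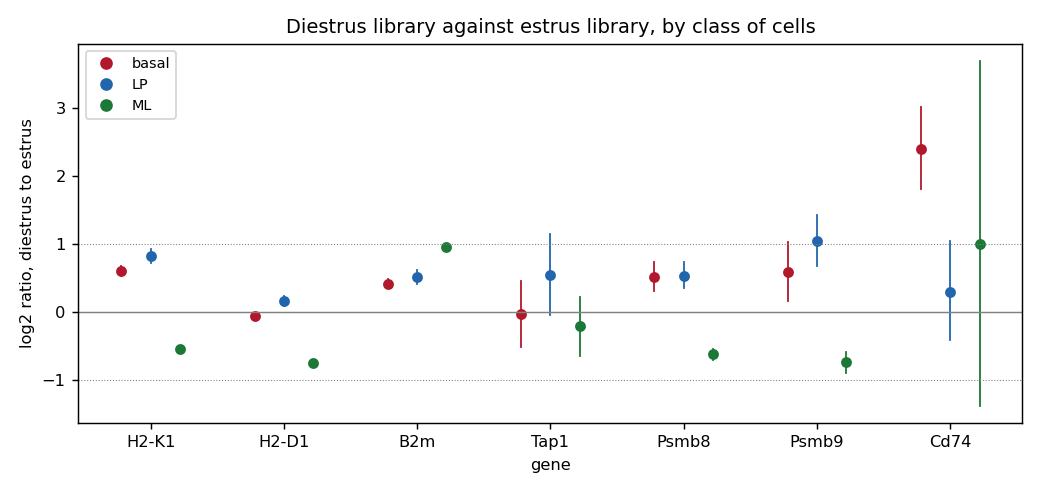
Log2 ratio of the diestrus to the estrus library for the 7 tested members in basal, LP and ML cells, from TMM-scaled CPM without a pseudocount, with 95% counting intervals; dotted lines mark 2-fold. H2-K1, Psmb8 and Psmb9 lie above 0 in basal and LP cells and below 0 in ML cells, and B2m lies above 0 in all 3.

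The wider pathway was read from 5 gene lists, whose counts stand beside the shares of all genes tested. Those were 27.4% higher and 29.2% lower in ML against basal, 20.8% and 22.2% in LP against ML, and 22.5% and 24.3% in LP against basal. Among 9 tested genes of the class I and non-classical class I list, 8 were higher and 0 lower in ML than in basal cells (median log2 fold change 1.10), and 0 were higher and 5 lower in LP than in ML cells (-1.10). LP against basal gave 5 higher and 2 lower. Fcgrt, the neonatal Fc receptor, which presents no peptide, was among them, at -1.71 in LP against ML (SE 0.154, edgeR adjusted p = 1.57e-05) and -1.36 in LP against basal (SE 0.157, adjusted p = 7.05e-05).

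In the list of peptide supply and loading, 7 of 13 tested genes were higher and 1 lower in ML than in basal cells, and 0 were higher and 5 lower in LP than in ML cells. LP against basal gave 5 higher and 1 lower. The medians were 0.48, -0.31 and -0.01, beside 27.4% and 29.2%, 20.8% and 22.2%, and 22.5% and 24.3% of all genes called higher and lower in the 3 comparisons.

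Among the class II accessory genes, 6 of 14 were tested, and their counts are set beside the same shares of all genes, 27.4% and 29.2%, 20.8% and 22.2%, and 22.5% and 24.3%. In ML against basal 4 were higher and 1 lower, in LP against ML 2 were higher and 4 lower, and in LP against basal 3 were higher and 1 lower. H2-DMa, a chain of the peptide editor of class II molecules, was at 25.9, 46.9 and 26.8 CPM in ML cells at puberty, estrus and diestrus. It was at 5.42, 3.87 and 5.50 CPM in basal cells and at 2.25, 1.10 and 2.56 CPM in LP cells. H2-DMa passed the filter of 5 CPM through its ML values, and its estrus LP value lay below 3 counts of the class (1.65 CPM). With that limit, LP against ML gave a log2 fold change of -3.70 (SE 0.336, edgeR adjusted p = 1.66e-05), opposite in direction to Cd74. Ctsl, the protease cathepsin L, was at 1144, 1434 and 756 CPM in basal cells, 469, 572 and 254 in LP cells and 147, 168 and 90.7 in ML cells. It was lower in ML than in basal cells by -3.04 (SE 0.123, adjusted p = 5.15e-08). Ciita, the class II transactivator, which was singled out after its values were seen, had 1 to 2 counts in 3 of the 9 pseudobulks and 0 in the others.

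Of the regulators, 4 of 15 tested genes were higher and 4 lower in ML against basal, shares near the 27.4% and 29.2% of all genes. There were 5 higher and 2 lower in LP against ML, and 6 higher and 1 lower in LP against basal, beside 20.8% and 22.2%, and 22.5% and 24.3%, of all genes. The interferon receptor chains Ifnar2 and Ifngr1 were higher in LP than in ML cells, by 1.38 (SE 0.123, edgeR adjusted p = 1.45e-05) and 1.72 (SE 0.159, adjusted p = 1.86e-05). Ifnar2 was also higher in LP than in basal cells by 1.31 (SE 0.124, adjusted p = 1.76e-05), and Ifngr1 was lower in ML than in basal cells by -1.04 (SE 0.158, adjusted p = 0.000333).

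Of the interferon-induced genes, 9 of 15 tested were higher and 2 lower in ML than in basal cells, with a median of 2.04, beside 27.4% and 29.2% of all genes. In LP against basal 10 were higher and 2 lower (median 1.31), and in LP against ML 1 was higher and 7 were lower (median -0.62), beside 22.5% and 24.3%, and 20.8% and 22.2%, of all genes. Bst2, the antiviral tetherin, was at 6.66, 6.15 and 13.1 CPM in basal cells, 47.2, 50.5 and 77.8 in LP cells and 99.7, 145 and 123 in ML cells. It was higher in ML than in basal cells by 3.85 (SE 0.216, edgeR adjusted p = 3.68e-07) and in LP than in basal cells by 2.89 (SE 0.220, adjusted p = 4.16e-06). Iigp1, an interferon-inducible GTPase, was higher in ML than in basal cells by 4.40 (SE 0.255, adjusted p = 4.62e-07) and in LP than in basal cells by 2.26 (SE 0.271, adjusted p = 9.03e-05), and Ifi35 was higher in ML than in basal cells by 2.04 (SE 0.154, adjusted p = 2.80e-06). Ifitm3, an antiviral membrane protein, went the other way, at 2944, 3003 and 2727 CPM in basal cells against 982, 1021 and 1297 in ML and 256, 169 and 322 in LP cells. Its log2 fold change was -3.44 in LP against basal (SE 0.182, adjusted p = 3.80e-07), -2.02 in LP against ML (SE 0.173, adjusted p = 1.10e-05) and -1.42 in ML against basal (SE 0.167, adjusted p = 6.03e-05).

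The genes whose levels were most like the class I pathway members over the 9 pseudobulks were sought by Pearson correlation of log2(CPM + 1) with the members' mean profile. They were Acsl5 (r = 0.986), Nudt2 (0.981), Smim20 (0.977), Mrps34 (0.976) and Tpi1 (0.973), all non-members with a mean of at least 20 CPM. Acsl5, an acyl-CoA synthetase, was at 17.5, 20.9 and 29.4 CPM in the basal pseudobulks (puberty, estrus, diestrus), at 24.2, 27.5 and 41.6 for LP and at 57.1, 92.8 and 55.0 for ML. For the class II members they were Trap1 (0.932), Ifrd2 (0.928), Cebpb (0.905), Sf3a3 (0.904) and Tamm41 (0.874), against a profile that rests on few counts. Cebpb, a transcription factor, was at 18.7, 31.4 and 176 CPM in the basal pseudobulks, at 30.1, 54.9 and 262 for LP and at 4.47, 6.97 and 18.6 for ML. The pseudobulks of a library share its mice and depth, and the best of all genes compared will correlate highly, so these values are a description.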

How the data were processed

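Per the labels and the study's methods, the authors made 10x Genomics 3′ libraries, aligned reads to mm10 with Cell Ranger 2.0 and deposited raw molecule counts per gene and cell. Here, classes were assigned from marker signatures of up to 100 genes that left out the members, the listed pathway genes and the listed immune markers but kept other immune-related genes, and counts were summed per class and library (Python 3.11.15, scanpy 1.11.5). Basal, LP and ML sums were compared with edgeR 4.0.16 (R 4.3.3): TMM, a mean of at least 5 CPM, library as a term, quasi-likelihood F test, adjusted p threshold 0.05. Standard errors are the log2 fold change over the square root of F. The code was tested on simulated data. Stages, with 1 library each, were compared as ratios only. Named genes were all members, the 3 smallest adjusted p per direction in each lineage comparison over 5 pathway lists, and the 5 genes most alike in pattern for each group of members. Members and lists were chosen with earlier results of these data known. Positions came from GENCODE M21 and promoters from RefSeq. Alternatives included DESeq2 1.42.0, other classes, filters, scalings, puberty tables and leaving out each library. Intervals cover counting error only.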

Additional observations from a re-analysis of the deposited data

Results flagged for a closer look

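The diestrus to estrus ratio of 4 members had opposite signs in different lineages, with counting intervals that left out 0, and the differences between lineages were not tested because each stage was 1 library. For H2-K1 the log2 ratio was 0.60 in basal and 0.82 in LP cells and -0.55 in ML cells. For Psmb8 it was 0.51 and 0.54 against -0.61, and for Psmb9 0.56 and 1.03 against -0.73. For H2-D1 it was 0.17 in LP cells against -0.74 in ML cells. The basal H2-D1 value of -0.054 also had the opposite sign to LP cells, but it was close to 0 and its interval covers counting error only. B2m had no such change of sign.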

How the results depend on the processing

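Over the alternatives run, no member with a fitted value changed direction in any lineage comparison. Of 375 member values over the lineage alternatives, a threshold of 0.01 on the same fit among them, 362 kept their side of the threshold, 8 lost it and 5 gained it. The losses were H2-K1 and Cd74 in LP against ML (a threshold of 0.01, no library term, and single libraries named above) and Tap1 in ML against basal (0.01). The gains were H2-K1, H2-D1 and Tap1 in LP against basal (no filter on low values, or a left-out library) and Tap1 in LP against ML. Genes called in LP against ML numbered 3892, and 2428 with no replicate block. Members past the fold between diestrus and estrus numbered 0 in basal cells, and 1 with library totals, 1 at 1.5-fold, 3 with no minimum level and 1 with stricter cell filters. In LP cells the 1 became 0 with a pseudocount of 5, 0 after thinning, 2 at 1.5-fold and 2 with no minimum level. In ML cells it was 0, and 4 at 1.5-fold. From puberty to adult, basal cells went from 0 to 1 at 1.5-fold, and LP cells from 0 to 2 with no minimum level. Of 383 stage ratios of members over the alternatives, 35 moved by more than the half-width of a counting interval. The largest median shifts of stage ratios without TMM were -0.14 in ML cells (diestrus to estrus) and -0.28 in LP cells (puberty to adult). Depth limits the class II chains, most of which rest on under 20 counts, and the effect of the haplotype on their levels was not tested.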

Other observations

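Cells with signatures of basal and luminal lineages together (98 at puberty, 30 in estrus, 42 in diestrus) had H2-D1 at 1816, 2981 and 2025 CPM, B2m at 969, 1212 and 1446 CPM and Psmb8 at 344, 409 and 289 CPM. Scrublet called 71, 23 and 21 of these cells doublets, and without them H2-D1 was at 2138, 1766 and 1900 CPM, B2m at 1364, 1347 and 854 CPM and Psmb8 at 466, 269 and 322 CPM. In diestrus 7 Cd74 counts were found in 4 of these cells (23.8 CPM). No cell was classed as immune. The endothelial and fibroblast classes held between 1 and 16 cells per library and no Cd74 count.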
